A study of Homo sapiens with 4 samples.

Results

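The genes described here encode the 5 subunits of the VHL ubiquitin ligase (VHL, ELOB, ELOC, CUL2 and RBX1) and 5 other cullins (CUL1, CUL3, CUL4A, CUL4B and CUL5). They were selected by symbol, whatever their values, and all 10 were found among the 12912 genes of the count table. RNA sequencing was performed on 786-O, a clear cell renal carcinoma line without functional VHL, and the comparison addresses what restoring VHL changed in these cells. The 2 libraries of 786-O-Ctrl carry the genotype label Wild type(VHL-null), and the 2 libraries of 786-O-VHL carry the label VHL restoration. The former are also called the controls, and the latter the libraries with restored VHL. The cell line label of both is 786-OTR, which stands for cells with a triple reporter of GFP, luciferase and thymidine kinase, so the controls express the reporter too. 786-O-VHL cells received HA-tagged VHL from the retroviral vector pBabe-puro and both sublines were grown in RPMI1640 with fetal bovine serum. All libraries of a group came from 1 subline, the labels do not say whether they came from separate cultures, and the p-values therefore measure a spread between libraries that may be technical. In bulk RNA, fewer cells of a type and less RNA per cell cannot be told apart.

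VHL is a substrate receptor. It binds hypoxia-inducible factor alpha subunits after prolyl hydroxylases have modified them, and the elongin pair ELOB and ELOC joins it to the cullin CUL2, whose far end holds the RING protein RBX1 and the ubiquitin-charged E2 enzyme. Loss of this ligase stabilizes hypoxia-inducible factor and is the defining lesion of clear cell renal carcinoma. Each of the other cullins is the scaffold of its own set of ligases: CUL1 takes F-box proteins through SKP1, CUL3 takes BTB proteins, CUL4A and CUL4B take DCAF proteins through DDB1, and CUL5 takes SOCS-box proteins through the same elongins that serve VHL.

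Sequence upstream of the gene is shown for the 3 members whose mRNA fell most, RBX1, CUL1 and CUL3, and for CUL2, which was not called in either direction. Each is the 250 bases before the RefSeq gene start in GRCh38.p14, written 5′ to 3′ on the strand of the gene. Capitals mark ACGTG, a form of the core that hypoxia-inducible factor binds, on either strand (CACGT where it reads on the other strand). Other forms of the core were not searched. The windows are chr22:40951128-40951377 on the plus strand for RBX1, chr7:148697506-148697755 on the plus strand for CUL1, chr2:224585364-224585613 on the minus strand for CUL3 and chr10:35090615-35090864 on the minus strand for CUL2.
RBX1: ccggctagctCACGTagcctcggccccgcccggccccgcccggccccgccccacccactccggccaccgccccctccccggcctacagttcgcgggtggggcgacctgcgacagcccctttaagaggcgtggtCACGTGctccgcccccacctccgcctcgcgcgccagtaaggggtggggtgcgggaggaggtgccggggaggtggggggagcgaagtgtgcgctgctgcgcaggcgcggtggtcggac
CUL1: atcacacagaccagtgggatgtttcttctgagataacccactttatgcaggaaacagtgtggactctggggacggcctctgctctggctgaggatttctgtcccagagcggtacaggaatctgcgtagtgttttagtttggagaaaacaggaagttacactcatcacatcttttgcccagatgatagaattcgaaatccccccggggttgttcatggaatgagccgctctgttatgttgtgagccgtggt
CUL3: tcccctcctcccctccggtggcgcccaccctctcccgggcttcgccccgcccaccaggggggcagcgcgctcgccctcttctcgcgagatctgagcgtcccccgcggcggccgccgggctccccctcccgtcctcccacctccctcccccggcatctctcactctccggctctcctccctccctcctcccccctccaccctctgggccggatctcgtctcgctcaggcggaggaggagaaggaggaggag
CUL2: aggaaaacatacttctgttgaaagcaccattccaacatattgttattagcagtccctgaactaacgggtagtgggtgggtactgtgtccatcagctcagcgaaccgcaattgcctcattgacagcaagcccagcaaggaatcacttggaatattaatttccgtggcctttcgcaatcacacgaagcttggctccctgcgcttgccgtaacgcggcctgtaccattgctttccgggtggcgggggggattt

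Promoter windows were found in RefSeq for 8 of the 10 members, VHL and ELOC being the others. The ACGTG core was present in 1 of the 8 windows, that of RBX1, and in 18.7% of all 27305 windows of the same length. RBX1 held 3 matches, which start 240, 117 and 116 bases before the gene start, and the last pair overlap because they are both strands of the E-box CACGTG. That E-box was present in 6.49% of all windows. An ETS site (CCGGAAG, either strand) and a CCAAT box (CCAAT, either strand) were each present in 1 window, that of CUL4B, against 8.82% and 33.0% of all windows. GC content was 76.8% in the RBX1 window, 74.8% in that of CUL3, 50.8% in that of CUL2 and 48.8% in that of CUL1, so the 3 genes shown for their fall did not share a base composition.

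The deposited values are reads counted per gene. Total counts were 22141263 and 15714166 for 786-O-Ctrl, whose libraries are named by depth (deeper, shallower) because both carry the same replicate number. Replicates 1 and 2 of 786-O-VHL had 2807779 and 16114120. Replicates of a group differed by more than sampling noise and each was counted once. All 6 markers of renal epithelium and clear cell carcinoma fixed for the check of the cell type were in the table, with PAX8 between 137 and 277 CPM. Their summed level was 3306 and 3296 CPM in the controls, against 1932 and 1935 CPM with restored VHL. Most of that sum was VIM (1668 and 1699 CPM, against 751 and 709 CPM), PAX8, PAX2 and KRT8 were also called lower, and KRT18 and CDH2 were not called (edgeR FDR = 0.103 and 0.194). The part of this difference in the results was not tested. Of 4 leukocyte markers only CD14 was in the table (0.0664 to 1.02 CPM), and of 4 endothelial markers only PECAM1 and KDR were (summed 0.339 to 0.760 CPM). COL1A1 and ACTA2, the 2 of 4 fibroblast and smooth muscle markers in the table, summed to 13.2 to 15.8 CPM with overlapping groups.

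Expression is given as CPM, the count relative to the TMM-scaled size of its library, and as log2 fold changes of 786-O-VHL over 786-O-Ctrl from edgeR's quasi-likelihood test. The false discovery rate (FDR) was adjusted by Benjamini-Hochberg over all 12335 genes tested, and a gene was called at an FDR under 0.05. A two-sided exact permutation test of 2 libraries against 2 cannot give a p below 0.333, so every call rests on the spread that edgeR shares between genes. All 10 members passed the filter on low counts, the lowest count of any member being 116.

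Restoration of VHL was accompanied by higher VHL mRNA, by a smaller increase of ELOB, and by lower RBX1, CUL1, CUL3 and ELOC. CUL2, CUL4A, CUL4B and CUL5 were not called. The called members were 2 higher and 4 lower of 10, where 32.6% of all tested genes were called higher and 31.9% lower. The share of members called in either direction was therefore close to the 64.5% of all tested genes. The libraries of the groups did not overlap for 8 members, 4 higher and 4 lower in 786-O-VHL, and 40.8% and 39.2% of all tested genes separated in these directions. The median log2 fold change was -0.046 over the members and 0.017 over all tested genes.

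**Figure D1:**
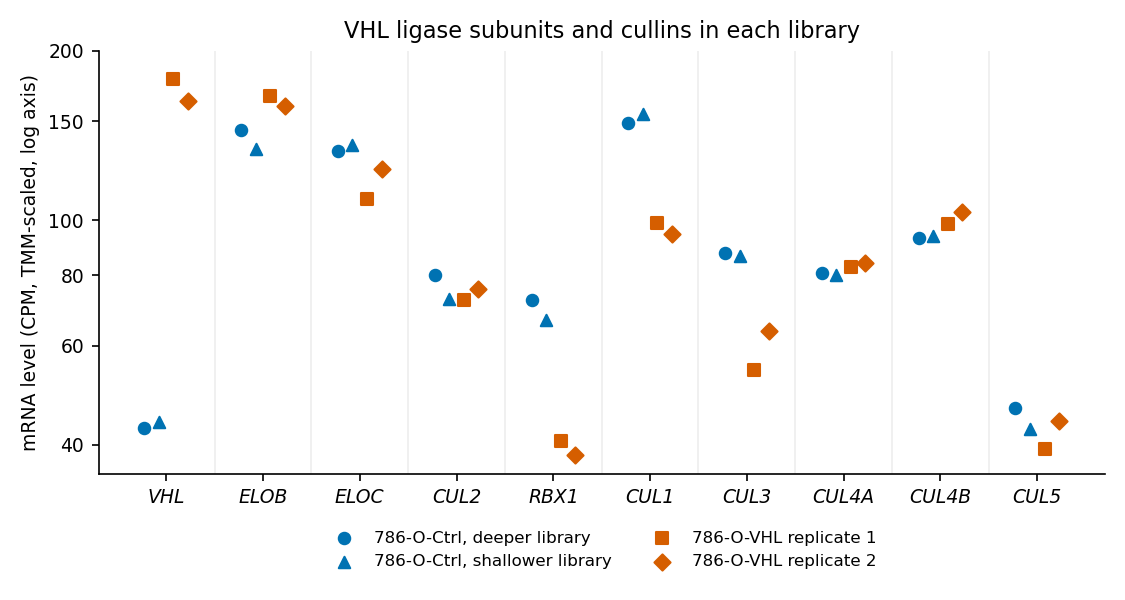
Expression of the 10 members in CPM, with a separate point for each control library and each library with restored VHL. VHL stands apart with 42.9 and 43.9 CPM in the controls, against 178 and 163 CPM with restored VHL, and RBX1, CUL1 and CUL3 are lower in both 786-O-VHL libraries.

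VHL (ENSG00000134086.7), the receptor, is at 10183462 to 10195351 of chromosome 3 (GRCh37, plus strand). Its mRNA was 42.9 CPM in the deeper and 43.9 CPM in the shallower 786-O-Ctrl library, and 178 and 163 CPM in 786-O-VHL replicates 1 and 2. Both 786-O-VHL libraries were far above both controls, and the controls, with the label VHL-null, held 903 and 661 counts of VHL. The study describes a VHL frameshift mutation in 786-O and also states that the line lacks VHL expression, without naming mRNA or protein. Whether these counts are transcripts of the mutated gene was not tested. VHL rose by a log2 fold change of 1.96 (SE 0.0706, 95% interval 1.81 to 2.10, edgeR FDR = 2.86e-19). This is a fitted 3.88-fold increase, just under the 4-fold threshold that the study used for 1 of its gene lists, and 4.46% of all tested genes passed that threshold with an FDR under 0.01. When replicate 2 of 786-O-VHL was left out the value was 2.03, with scaling by library totals 2.09 and after thinning to the shallowest library 2.25, all above the threshold. By log2 fold change VHL ranked 376 of 12335, and by p it ranked 54.

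A count of reads on VHL holds transcripts of the vector and of the endogenous gene together. It can also hold reads of other genes, since 28.7% of the 50-base words in the canonical VHL transcript of 4414 bases also occur in annotated transcripts of other genes, and how the counting treated such reads is not given in the sources used here. Only 639 of those bases are coding. VHL is overlapped on the opposite strand by 1 annotated lncRNA, which has no row in the count table.

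The genes beside VHL on chromosome 3 did not share a direction. Of the 18 tested genes that start within 500 kb of it, 5 were called higher, 6 lower and 7 in neither direction, with a median log2 fold change of -0.11. Such a mix is near that of all tested genes, of which 32.6% were called higher and 31.9% lower. BRK1, an actin-regulatory subunit of the WAVE complex and the nearest tested gene upstream, fell from 159 ± 1.32 CPM (SD, n = 2) to 137 ± 11.2 CPM (SD, n = 2), by 0.24 on the log2 scale (SE 0.0676, edgeR FDR = 0.00260). IRAK2, a kinase of interleukin-1 receptor signalling and the nearest downstream, rose from 30.3 ± 1.93 to 37.9 ± 3.77 CPM (SD, n = 2 each), by 0.38 on the log2 scale (SE 0.101, edgeR FDR = 0.00183). The edgeR call of BRK1 was lost without the deeper control (FDR = 0.0523), the shallower control (FDR = 0.0655) or 786-O-VHL replicate 2 (FDR = 0.156), and with library totals (-0.11, FDR = 0.153). IRAK2 was not called without the deeper control (edgeR FDR = 0.0958) or 786-O-VHL replicate 2 (edgeR FDR = 0.282), after thinning (edgeR FDR = 0.110) or by DESeq2 (FDR = 0.0887). FANCD2, the Fanconi anemia protein that is ubiquitinated at stalled replication forks, and the nuclease TATDN2 fell by 1.17 and 1.10 on the log2 scale. VHL, at 1.96, lay above the highest neighbor, which was TTLL3 at 1.02.

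**Figure D2:**
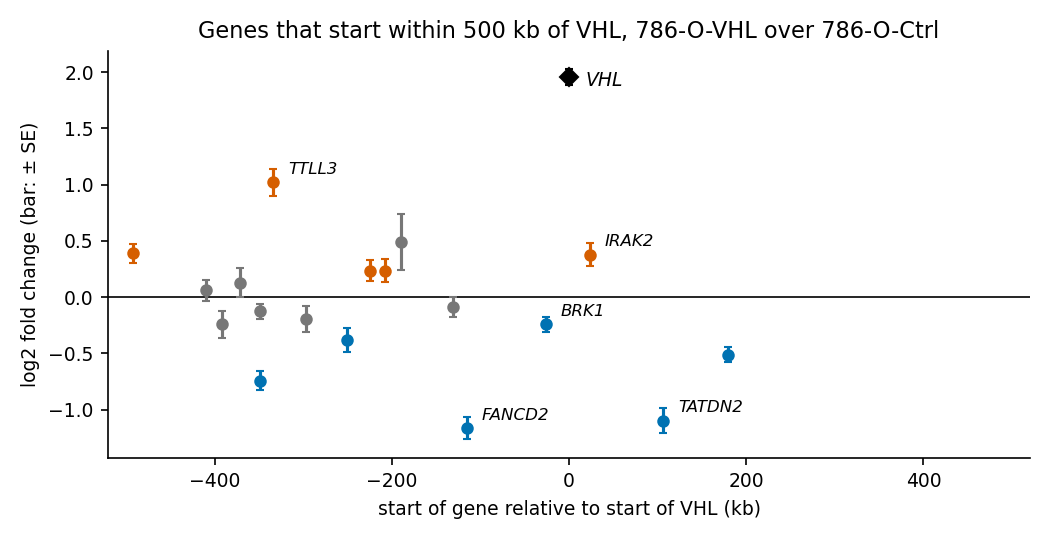
Log2 fold change (786-O-VHL over 786-O-Ctrl) of VHL and of the tested genes that start within 500 kb of it, against the distance of their start from that of VHL in kb. VHL is the highest point at 1.96, and its neighbors range from -1.17 to 1.02 on both sides of 0.

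The 3 tested genes with the profile most like that of VHL over the 4 libraries, by Euclidean distance of centred log2 CPM, were GAA (distance 0.0388), DUSP4 (0.0800) and SGPP2 (0.0873). GAA, the lysosomal acid alpha-glucosidase, was 33.3 and 35.3 CPM in the controls, against 139 and 127 CPM with restored VHL. DUSP4, a phosphatase of MAP kinases, had 7.07, 6.84, 30.2 and 26.4 CPM in the same order, and SGPP2, a sphingosine-1-phosphate phosphatase, had 6.60, 6.64, 25.8 and 24.0 CPM. In all of these, as in VHL, 786-O-VHL replicate 1 was above replicate 2, an order that the choice by distance favors.

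ELOB (ENSG00000103363.14; chromosome 16, 2821415 to 2827290, minus strand) and ELOC (ENSG00000154582.16; chromosome 8, 74851404 to 74884542, minus strand) form the adaptor between VHL and CUL2. ELOB mRNA was 145 and 134 CPM in the 786-O-Ctrl libraries and 167 and 159 CPM in the 786-O-VHL libraries. The groups did not overlap, and the gap between them, from 145 to 159 CPM, was only slightly wider than the gap between the control libraries. ELOB rose by a log2 fold change of 0.21 (SE 0.0663, edgeR FDR = 0.00601), but it was not called by DESeq2 (FDR = 0.0741) or, in edgeR, without the shallower 786-O-Ctrl library (log2 fold change 0.16, FDR = 0.224).

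ELOC mRNA was 133 and 136 CPM in the controls, against 109 and 124 CPM with restored VHL. Both 786-O-VHL libraries were below both controls, and they differed more from each other than the controls did. ELOC fell by 0.17 on the log2 scale (SE 0.0680, edgeR FDR = 0.0272). This call was the least stable of the 6, and it was kept in 7 of 12 alternatives. It was lost with DESeq2 (FDR = 0.0835), with scaling by library totals (log2 fold change -0.040, edgeR FDR = 0.616), and when either control library or 786-O-VHL replicate 1 was left out (edgeR FDR = 0.101 without the deeper control, 0.176 without the shallower control and 0.0637 without 786-O-VHL replicate 1). For ELOB, 15.8% of 50-base words were shared with transcripts of ELOBP1 and of SRRM2, which overlaps it on the opposite strand and was not called (log2 fold change 0.089, edgeR FDR = 0.259). For ELOC, 4.98% of words were shared with other genes and the annotation holds 35 genes named as its pseudogenes, so counts of both elongins are uncertain to that extent.

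CUL2 (ENSG00000108094.14; chromosome 10, 35297432 to 35415934, minus strand) is the scaffold of the VHL ligase. Its mRNA was 79.9 and 72.6 CPM in the controls, against 72.2 and 75.6 CPM with restored VHL. The groups overlapped, with replicate 2 of 786-O-VHL between the control libraries. The log2 fold change was -0.033 with a 95% interval from -0.18 to 0.12 (edgeR FDR = 0.714), and its sign changed with scaling by library totals (0.10) and without the deeper control (0.033). CUL2 shares 191 exon bases, 1.32% of the union of its exons, with CREM on the opposite strand, which rose by 0.48 (edgeR FDR = 0.00111).

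RBX1 (ENSG00000100387.8; chromosome 22, 41347351 to 41369313, plus strand) is the RING subunit that CUL2 shares with CUL1, CUL3, CUL4A and CUL4B. Its mRNA was 72.3 and 66.6 CPM in the controls, against 40.7 and 38.4 CPM with restored VHL. The groups were far apart, and each varied little. RBX1 fell by 0.84 on the log2 scale (SE 0.0832, 95% interval -1.01 to -0.67, edgeR FDR = 8.29e-10), which is a decrease of 44.1% by the fitted fold and the largest decrease among the 10 members. It was called in all 12 alternatives, at log2 fold changes between -0.89 and -0.71. None of its 50-base words was shared with another gene.

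CUL1 (ENSG00000055130.17; chromosome 7, 148395006 to 148498202, plus strand) is the scaffold of the SCF ligases. CUL1 mRNA was 149 and 155 CPM in the controls, against 99.0 and 94.8 CPM with restored VHL. The groups did not overlap, and the fall was larger than the spread within either. The log2 fold change was -0.66 (SE 0.0672, edgeR FDR = 1.50e-09), a decrease of 36.6%, and it stayed between -0.69 and -0.52 and called in all 12 alternatives.

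CUL3 (ENSG00000036257.13; chromosome 2, 225334867 to 225450114, minus strand) is the scaffold for BTB proteins such as KEAP1. CUL3 mRNA was 87.5 and 86.4 CPM in the controls, against 54.3 and 63.7 CPM with restored VHL. The controls lay close together and both 786-O-VHL libraries were lower, with the shallow replicate 1 lowest. CUL3 fell by 0.50 on the log2 scale (SE 0.0756, edgeR FDR = 1.41e-06), a decrease of 29.5%. It was called in all 12 alternatives, between -0.69 and -0.37, and 7.53% of its 50-base words were shared with 1 other annotated gene.

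CUL4A (ENSG00000139842.15; chromosome 13, 113862507 to 113921422, plus strand) and CUL4B (ENSG00000158290.16; chromosome X, 119639775 to 119737929, minus strand) are paralogs that bind DDB1. CUL4A mRNA was 80.8 and 80.1 CPM in the controls, against 82.8 and 84.0 CPM with restored VHL, a log2 fold change of 0.056 (95% interval -0.086 to 0.20, edgeR FDR = 0.492). CUL4B mRNA was 93.2 and 94.0 CPM in the controls, against 98.7 and 104 CPM with restored VHL, a log2 fold change of 0.13 (95% interval -0.010 to 0.27, edgeR FDR = 0.0986). For both, the 786-O-VHL libraries were above the controls by a few CPM without passing the test. With scaling by library totals both were called (CUL4A 0.19, edgeR FDR = 0.0180; CUL4B 0.26, edgeR FDR = 0.00121), and CUL4B was also called without 786-O-VHL replicate 1 (0.15, edgeR FDR = 0.0339).

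CUL5 (ENSG00000166266.14; chromosome 11, 107879624 to 107978488, plus strand) uses the elongins as VHL does, but pairs with the RING protein RNF7 in place of RBX1. CUL5 mRNA was 46.6 and 42.7 CPM in the controls, against 39.3 and 44.1 CPM with restored VHL. The groups overlapped. The log2 fold change was -0.059 with a 95% interval from -0.24 to 0.13 (edgeR FDR = 0.580), and it was 0.074 with scaling by library totals.

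**Figure D3:**
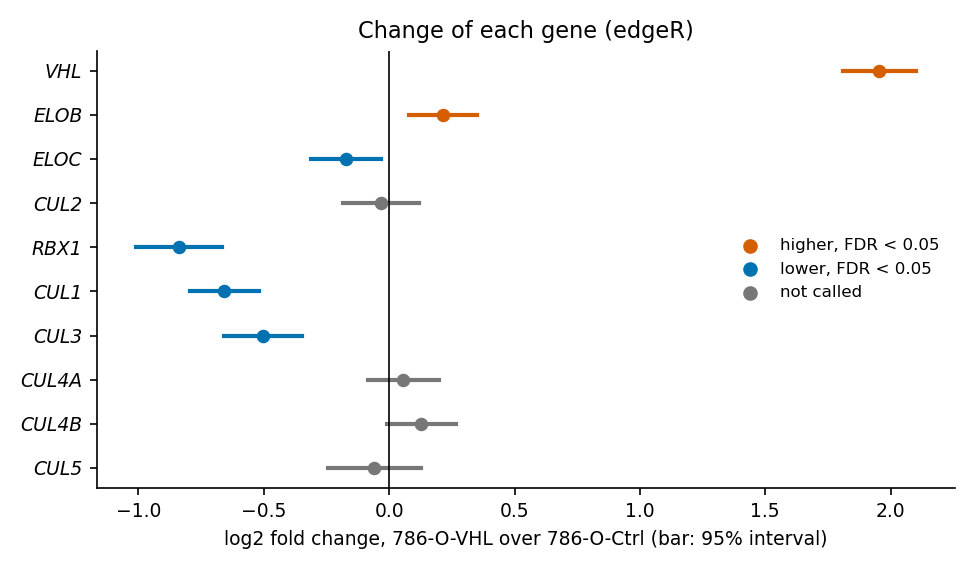
Log2 fold change (786-O-VHL over 786-O-Ctrl) of each member with its 95% interval from edgeR. VHL and ELOB lie above 0, ELOC, CUL3, CUL1 and RBX1 lie below 0, and the intervals of CUL2, CUL4A, CUL4B and CUL5 include 0.

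Levels of different genes were compared as CPM per kb of the canonical transcript. On this scale ELOB was at 143 ± 8.18, ELOC at 66.7 ± 1.25, RBX1 at 59.4 ± 3.43, CUL2 at 18.2 ± 1.24 and VHL at 9.83 ± 0.168 CPM per kb in 786-O-Ctrl (SD, n = 2 each). In 786-O-VHL, VHL reached 38.6 ± 2.39 CPM per kb, beside 33.8 ± 1.38 for RBX1 and 17.7 ± 0.575 for CUL2. The order of the subunits depends on the length that is used, since few bases of the VHL transcript are coding. Per kb of coding sequence VHL was 67.9 ± 1.16 and CUL2 34.1 ± 2.32 in the controls (SD, n = 2 each), and VHL was then above CUL2 in both groups. ELOB, ELOC and RBX1 were above CUL2 with transcript length, coding length and the union of annotated exons, in both groups.

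The ratio of VHL to CUL2 per kb of transcript was 0.508 and 0.574 in the controls, against 2.34 and 2.04 with restored VHL. The same length was used for VHL in both groups, so the fold change of this ratio is the same with each length, but its size is not. The vector's VHL transcript may differ in length from the endogenous one, and the effect of this on the ratio was not tested. With coding length the mean ratio was 1.997 in the controls and 8.08 with restored VHL, and with the union of exons 1.65 and 6.70, so whether the receptor had less mRNA than its scaffold in the controls turns on the length. The ratio of VHL to ELOC went from 0.147 ± 0.000243 to 0.673 ± 0.1002 (SD, n = 2 each) per kb of transcript. The ratio of RBX1 to CUL2 was 3.24 and 3.29 in the controls, against 2.02 and 1.82 with restored VHL, and it stayed above 1 with each of the 3 lengths. The ratio of CUL2 to CUL5, the pair of cullins that use elongins, was 2.52 ± 0.0153 in the controls and 2.62 ± 0.127 with restored VHL (SD, n = 2 each), a difference within the spread of the 786-O-VHL libraries.

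Among the 6 cullins of this set, CUL1 held the largest share of the summed CPM per kb in all 4 libraries, with 41.5 ± 1.32% in the controls and 32.3 ± 1.64% with restored VHL (SD, n = 2 each). CUL7 and CUL9, which are also expressed, are not in this sum. CUL3 went from 11.1 ± 0.0564% to 9.14 ± 0.852%. The other shares were larger in 786-O-VHL: CUL2 went from 15.7 ± 1.01% to 18.5 ± 0.230%, CUL4A from 11.9 ± 0.0220% to 15.0 ± 0.141%, CUL4B from 13.6 ± 0.139% to 17.9 ± 0.270% and CUL5 from 6.22 ± 0.364% to 7.08 ± 0.431%. Each of these differences had the same direction with coding length and with the union of exons, where the mean share of CUL1 was 28.8% and 52.8% in the controls. Since shares sum to a whole, the larger shares of genes that were not called go with the lower CUL1 and CUL3.

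VHL competes for CUL2 with other receptors that dock through elongins, among them the FEM1, KLHDC and ZYG11 families, which recognize the ends of proteins. Of 12 such genes, 10 were in the table and tested, 4 (40%) were called higher and 1 (10%) lower, and the median log2 fold change was 0.11. Over all tested genes 32.6% were called higher and 31.9% lower. KLHDC2, which recognizes C-terminal glycine, rose from 19.0 ± 1.39 to 49.3 ± 1.10 CPM (SD, n = 2 each; log2 fold change 1.39, SE 0.102, edgeR FDR = 1.80e-12). FEM1B rose from 59.9 ± 0.652 to 103 ± 4.22 CPM (SD, n = 2 each; 0.79, SE 0.0698, edgeR FDR = 7.46e-11), and ZER1, a reader of N-terminal glycine, rose by 0.32. LRR1, a receptor that acts in unloading the replicative helicase when replication forks terminate, fell from 14.4 ± 0.836 to 7.63 ± 0.718 CPM (SD, n = 2 each; -0.97, SE 0.171, edgeR FDR = 1.64e-05). The higher calls numbered 2 with DESeq2 and without 786-O-VHL replicate 2, where ZER1 was no longer called, and the lower calls numbered 2 after thinning and without 786-O-VHL replicate 2.

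VHL made up 8.17% and 8.20% of the summed CPM per kb of VHL and these 10 receptors in the controls, and 26.7% and 23.5% with restored VHL. The summed level of the other 10 was 109 and 111 CPM per kb in the controls, against 110 and 120 CPM per kb with restored VHL, so it overlapped between groups while the share of VHL did not. KLHDC3 had the largest share in the controls, 41.3 ± 0.913%, and had 27.9 ± 2.55% with restored VHL (SD, n = 2 each). Its own mRNA was not called (log2 fold change -0.15, edgeR FDR = 0.0738). Since shares sum to a whole, its smaller share goes with the larger share of VHL. KLHDC2 went from 3.19 ± 0.186% to 6.44 ± 0.0398% and LRR1 from 7.96 ± 0.348% to 3.31 ± 0.405%. The size of the VHL share depends on the length used, and with coding length in place of transcript length it was 19.9% in the controls and 45.8% with restored VHL. The length of the vector's VHL transcript is not given in the sources used here.

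**Figure D4:**
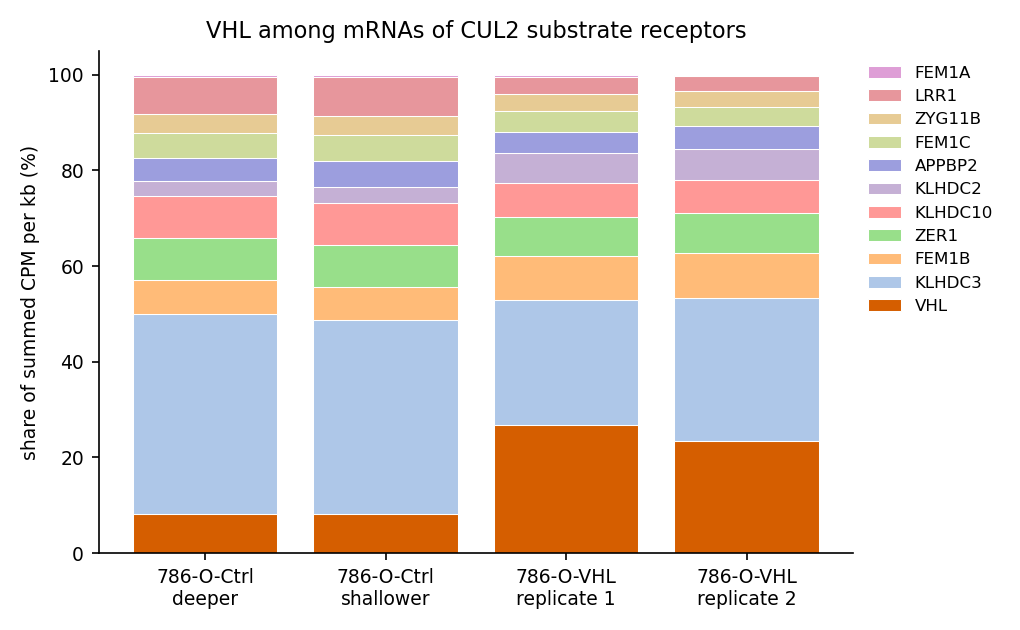
Share of VHL and of 10 other CUL2 substrate receptors in their summed CPM per kb, in percent, as 1 stacked bar per library. The VHL segment is 8.17% and 8.20% in the controls and 26.7% and 23.5% with restored VHL.

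Of 27 tested CUL5 receptors, 14 (51.9%) were called higher and 5 (18.5%) lower, where 32.6% and 31.9% of all tested genes were, and their median log2 fold change was 0.38. The cytokine-signaling inhibitors SOCS1 and SOCS2 rose, SOCS1 from 5.10 ± 0.444 to 18.9 ± 1.15 CPM (SD, n = 2 each; log2 fold change 1.84, SE 0.171, edgeR FDR = 2.16e-10) and SOCS2 from 12.8 ± 0.507 to 39.7 ± 0.506 CPM (SD, n = 2 each; 1.63, SE 0.115, edgeR FDR = 7.14e-13). KLHDC1, a paralog of KLHDC2 that works with CUL5, rose by 2.71 from a low level (9 and 11 counts in the controls, 14 and 57 with restored VHL). ASB9, which binds creatine kinase, and WSB2 fell by 2.26 and 0.61 on the log2 scale, and ASB9 had only 2 and 8 counts in 786-O-VHL. The number called lower was between 1 and 5 under the alternatives, with 2 by DESeq2 or without the deeper control, 3 without the shallower control, and 1 after thinning to the shallowest library or without 786-O-VHL replicate 2, where ASB9 was not called (edgeR FDR = 0.0919).

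F-box receptors of CUL1 were 19 (30.2%) higher and 7 (11.1%) lower of 63 tested, where all tested genes had 32.6% and 31.9%. Their median log2 fold change was 0.087. The muscle atrophy ligase subunit FBXO32 rose by 1.45 (SE 0.118), FBXL20 by 1.22 (SE 0.123), and FBXL16 by 2.40 (SE 0.460) from 7 and 10 counts in 786-O-Ctrl. SKP2, which targets the CDK inhibitor p27, fell from 77.4 ± 0.583 to 22.6 ± 1.32 CPM (SD, n = 2 each; -1.74, SE 0.0884, edgeR FDR = 5.54e-16). CCNF, cyclin F, fell from 70.3 ± 1.67 to 32.3 ± 1.83 CPM (SD, n = 2 each; -1.15, SE 0.0852, edgeR FDR = 1.85e-12), and LMO7 fell by 0.43. The higher calls numbered 12 by DESeq2 and 32 with library totals. The lower calls numbered 4 by DESeq2, with library totals, after thinning and without the deeper control, where LMO7 was not called (edgeR FDR = 0.0819).

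BTB receptors of CUL3 were 23 (40.4%) higher and 11 (19.3%) lower of 57 tested, with a median of 0.12, beside 32.6% and 31.9% of all tested genes. KLHL24, which controls keratin turnover, rose from 12.0 ± 1.65 to 58.3 ± 0.472 CPM (SD, n = 2 each; log2 fold change 2.29, SE 0.111, edgeR FDR = 1.71e-16). KLHL13, a regulator of Aurora B in mitosis, rose by 1.88 and KLHL4 by 1.02. KLHL17, KLHL42 and KCTD10 fell by 0.75, 0.57 and 0.54 on the log2 scale, with standard errors between 0.0830 and 0.129. The lower calls numbered 7 with library totals, after thinning and without the deeper control. KLHL42 was not called without 786-O-VHL replicate 2 (edgeR FDR = 0.0604) or after thinning (edgeR FDR = 0.0621).

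DDB1 and the receptors of CUL4 were 8 (29.6%) higher and 11 (40.7%) lower of 27 tested, beside 32.6% and 31.9% of all tested genes. Their median was -0.086, and 11 were higher and 10 lower with scaling by library totals. DDB1, the adaptor of both CUL4 paralogs, fell from 373 ± 4.45 to 194 ± 2.58 CPM (SD, n = 2 each; -0.94, SE 0.0633, edgeR FDR = 2.84e-13). DTL, the receptor that destroys CDT1 during DNA replication, fell from 58.0 ± 0.771 to 16.7 ± 3.19 CPM (SD, n = 2 each; -1.92, SE 0.109, edgeR FDR = 6.37e-15), and TRPC4AP fell by 0.60. DCAF10, DCAF5 and CRBN, the cereblon receptor that thalidomide binds, rose by 0.94, 0.85 and 0.73.

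The remaining adaptors, RING partners and cullins were 2 (28.6%) higher and 4 (57.1%) lower of 7, beside 32.6% and 31.9% of all tested genes. The F-box adaptor SKP1 fell from 160 ± 2.73 to 123 ± 1.01 CPM (SD, n = 2 each; -0.37, SE 0.0650, edgeR FDR = 1.52e-05). RNF7, the RING partner of CUL5, fell by 0.46 (SE 0.0870, edgeR FDR = 3.64e-05), from 55.7 ± 2.42 to 42.0 ± 3.95 CPM (SD, n = 2 each). The ratio of RBX1 to RNF7 per kb of transcript was 2.85 ± 0.0403 in the controls and 2.16 ± 0.115 with restored VHL, so that RBX1 was lower relative to its paralog. ANAPC2, the cullin-like subunit of the anaphase-promoting complex, fell by 0.78 on the log2 scale. The fourth lower call was its RING subunit ANAPC11, named after its value was seen (-0.21, edgeR FDR = 0.0105). ANAPC11 was not called by DESeq2 (FDR = 0.0658) or, in edgeR, with library totals (-0.077, FDR = 0.338) or without the deeper control (-0.15, FDR = 0.272). The large cullins CUL9 and CUL7 rose by 0.40 and 0.27, but CUL7 was not called by DESeq2 (FDR = 0.0967) or, in edgeR, without the shallower control (FDR = 0.1002) or 786-O-VHL replicate 2 (FDR = 0.0731), and after thinning it was 0.14 (FDR = 0.349).

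Cullins are switched on by attachment of NEDD8 and switched off by the COP9 signalosome, which removes it. Of 22 tested genes of this cycle, 4 (18.2%) were higher and 10 (45.5%) lower, with a median of -0.12, beside 32.6% and 31.9% of all tested genes. The signalosome subunits COPS3, COPS6 and COPS4 fell by 0.78, 0.68 and 0.56 on the log2 scale, with edgeR FDR values of 6.31e-10, 6.93e-09 and 2.94e-05. DCUN1D3, a co-ligase for NEDD8, rose from 12.3 ± 0.615 to 22.2 ± 1.64 CPM and UBE2M, the E2 enzyme for NEDD8 on the RBX1-bound cullins, from 115 ± 2.89 to 151 ± 2.42 CPM (SD, n = 2 each). Some further genes were singled out by role after their values were seen. UBA3, the catalytic subunit of the NEDD8-activating enzyme, fell by 0.42 and its partner NAE1 was not called (-0.068, edgeR FDR = 0.457). CAND1, which exchanges receptors on cullins, fell by 0.54, and COPS5, the signalosome's protease, was not called (0.050, edgeR FDR = 0.540) except with library totals (0.18, edgeR FDR = 0.0207). By DESeq2, 2 genes of the cycle were called higher.

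Enzymes that pass ubiquitin to the cullin ligases were 3 (25%) higher and 4 (33.3%) lower of 12, beside 32.6% and 31.9% of all tested genes. Their median was 0.027, and 6 were higher and 3 lower with scaling by library totals. The activating enzymes UBA1 and UBA6 fell, UBA1 from 515 ± 15.8 to 240 ± 0.507 CPM (SD, n = 2 each; -1.10, SE 0.0631, edgeR FDR = 7.84e-15) and UBA6 by 0.82. UBE2L3, the E2 enzyme that works with ARIH1, fell by 0.76. ARIH1 itself rose by 0.59, and the chain-extending E2 enzymes CDC34 and UBE2R2 rose by 0.56 and 0.33.

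Newly made VHL protein is folded by the TRiC chaperonin before it joins the elongins. Of 13 tested genes of TRiC and of prefoldin, 10 fell and 0 rose, with a median log2 fold change of -0.55, against 31.9% of all tested genes called lower. All 8 TRiC subunits were called lower, among them CCT5, which fell from 798 ± 26.4 to 372 ± 16.4 CPM (SD, n = 2 each; -1.11, SE 0.0628, edgeR FDR = 6.16e-15), and CCT3, which fell by 0.84. VBP1, the prefoldin subunit that binds VHL, fell from 81.1 ± 2.64 to 50.4 ± 3.08 CPM (SD, n = 2 each; -0.72, SE 0.0768, edgeR FDR = 3.74e-09). PFDN2, PFDN4 and PFDN5 were not called, and across the alternatives 9 to 11 of the genes were called lower. With scaling by library totals 1 of the 13 was called higher.

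Of 4 tested enzymes that act on VHL protein, 3 (75%) were called higher and 0 lower, beside 32.6% and 31.9% of all tested genes. The ligase subunit WSB1 and the casein kinase 2 catalytic subunits CSNK2A1 and CSNK2A2 rose by 0.36, 0.28 and 0.25. CSNK2A2 was not called by DESeq2 (FDR = 0.101) or, in edgeR, without the deeper control (FDR = 0.138). UBE2S, an E2 enzyme linked to VHL turnover, was 354 CPM in the controls and 352 CPM with restored VHL on average, a log2 fold change of 0.018 (edgeR FDR = 0.841). Its 786-O-VHL replicates stood at 316 and 388 CPM, and in edgeR it was called higher without replicate 1 (0.13, FDR = 0.0104) and lower without replicate 2 (-0.17, FDR = 0.0214). The 2 tested deubiquitinases that bind VHL, USP20 and USP33, were both called higher, where 32.6% of all tested genes were. They rose from 29.95 ± 0.544 to 50.2 ± 1.499 CPM and from 77.8 ± 1.86 to 101 ± 0.959 CPM (SD, n = 2 each). The log2 fold changes were 0.76 (SE 0.0913, edgeR FDR = 3.29e-08) and 0.38 (SE 0.0684, edgeR FDR = 2.16e-05).

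**Figure D5:**
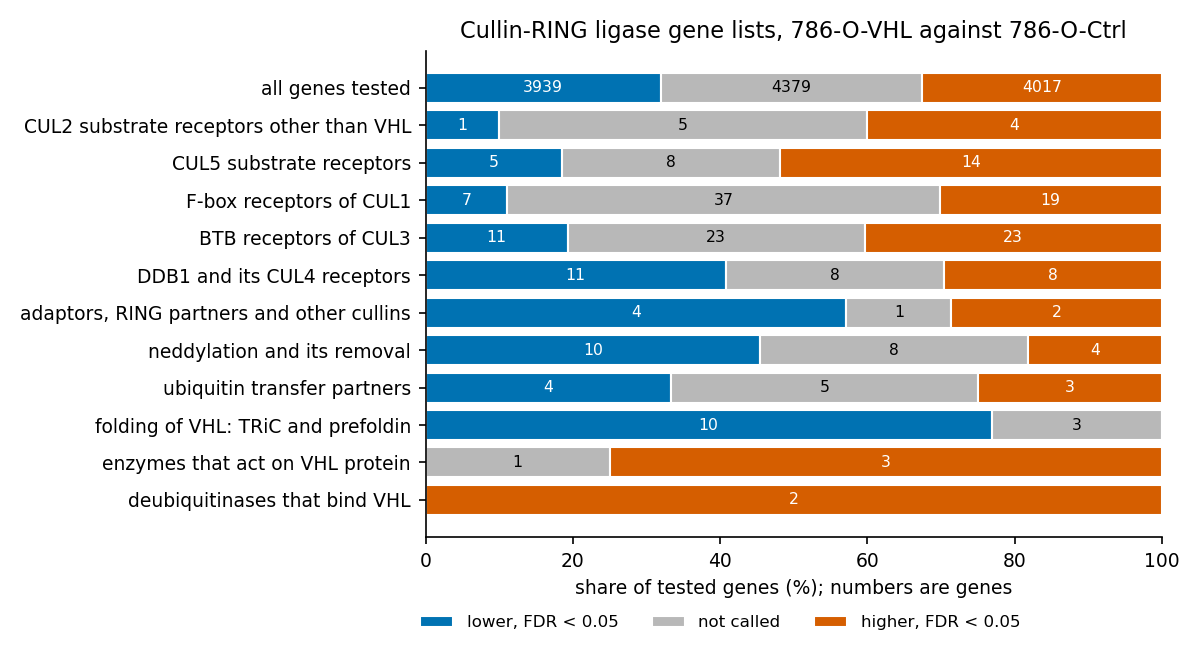
Number of tested genes called higher, called lower and not called at an edgeR FDR under 0.05 in each list of genes around the cullin ligases. The folding list has 10 lower and 0 higher of 13, and the CUL5 receptors have 14 higher and 5 lower of 27.

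Over all these lists, 242 genes were tested, of which 81 (33.5%) were called higher and 63 (26.0%) lower, and their median log2 fold change was 0.053. Over all tested genes the corresponding shares were 32.6% and 31.9%.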

How the data were processed

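Total RNA was made into libraries with a TruSeq RNA kit, 2 per subline. The authors deposited 1 table of raw counts per gene, whole numbers without normalization, for 12912 genes. The submitters' processing notes name CASAVA, STAR and hg19. No source used here gives the counting tool, its strand setting or the annotation. The study itself tested with DESeq2. The depth per library is given with the results, and 3 counts correspond to 0.142, 0.199, 1.02 and 0.178 CPM in the deeper and shallower 786-O-Ctrl libraries and 786-O-VHL replicates 1 and 2, which covers counting error only. The members, lists and tests were chosen with earlier results of these data known.

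The test was edgeR 4.0.16 under R 4.3.3. filterByExpr with a minimum count of 10 kept 12335 genes and removed 577, TMM factors were applied, and glmQLFTest compared the groups with no covariate and with Benjamini-Hochberg adjustment. Standard errors are those implied by the F statistic. The common biological coefficient of variation was 4.31%. Coordinates and lengths came from GENCODE for GRCh37, with the exons of the canonical transcript as length. The table has 75 duplicated symbols, and the row with most counts was used.

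The text names all members, of each list at most 3 genes per direction with the largest change at an FDR under 0.01 and groups that do not overlap, the nearest 2 tested genes on each side of VHL, and the 3 genes most like VHL. For counts simulated from these libraries over 12335 genes, edgeR recovered 88 of 100 genes changed 1.5-fold and 100 of 100 changed 4-fold, with 9 false calls. The simulated spread was estimated from these same libraries. Changed genes were few, all above a minimum level, and as many went up as down, whereas 64.5% of all tested genes were called in the data. The simulation therefore does not give the rate of false calls in these data. The alternatives were DESeq2 1.42.0, limma-voom (limma 3.58.1), RLE size factors, library totals, no filter, at least 10 counts in every library, thinning to the shallowest library, each library left out in turn, a replicate block, and coding length in place of transcript length. The union of annotated exons, and other lengths for levels and ratios of members, were added after the data had been seen.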

Additional observations from a re-analysis of the deposited data

How the results depend on the processing

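VHL, RBX1, CUL1 and CUL3 kept their direction and their call under all 12 alternatives. The log2 fold change of CUL2 (-0.033) became 0.10 with library totals and lay between -0.11 and 0.033 when a library was left out, positive without the deeper 786-O-Ctrl library, and that of CUL5 (-0.059) became 0.074 with library totals. None of these values was called. UBE2S (0.018) became -0.015 with DESeq2 and lay between -0.17 and 0.13 when a library was left out. NAE1 (-0.068) became 0.065 with library totals and lay between -0.13 and 0.097 when a library was left out. Library totals shift the median of all genes by 0.13 on the log2 scale, which turns 4017 higher and 3939 lower calls into 5077 and 3097. The 2 members called higher became 1 with DESeq2 (2816 higher calls over all genes) and 4 with library totals, and between 1 and 3 when a library was left out: 1 without the shallower 786-O-Ctrl library, where ELOB was lost, and 3 without 786-O-VHL replicate 1, where CUL4B was gained. The count past 4-fold was 550, and 232 with at least 10 counts in every library. The VHL share of CUL2 receptors in 786-O-Ctrl, 8.19%, was 19.9% with coding length, 8.03% with the union of exons and 7.03% after thinning, and the 25.1% in 786-O-VHL was 45.8% with coding length. The cause was not tested.

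The count table gives both 786-O-Ctrl libraries the same number. Numbers taken from matching the counts of 582 entries in a supplementary table gave a correlation of deviations of -0.020 over 8053 genes with at least 50 counts. Whether libraries of the same number shared a culture or a batch cannot be told from this value. With these numbers as a replicate block, VHL was 1.97, UBE2S was -0.0038 and no member's call changed. Depth limits genes with few counts in 786-O-VHL replicate 1, where 2807779 counts were read.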
